A study of Homo sapiens with 6 samples.

Results

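The pentose phosphate pathway was examined through 9 of its genes, found by their symbols among the 56638 gene symbols counted in 6 RNA sequencing libraries. These were H6PD, PGLS and PGD of the oxidative branch, RPIA, RPE, TKT, TKTL1 and TALDO1 of the non-oxidative branch, and PRPS1, through which ribose phosphate leaves for nucleotide synthesis. All 9 symbols were present in the files, and 8 of them passed the filter on low counts and were tested. TKTL1 did not pass. The libraries came from human SW480 colorectal cancer cells, according to the sample labels, while the methods of the study name DLD-1 cells. Of these, 3 libraries were from cells transfected with nonspecific control siRNA and 3 from cells transfected with siRNA against the long non-coding RNA lncRNA-AF339830, which the study names GLCC1. Cells of both groups were grown in RPMI-1640 with serum. The time from transfection to harvest is not given in the sources used here, nor is a separate culture for each library, so the p-values measure the spread between these libraries, which may be technical. The groups are those of the sample titles, whereas in the library names the 2 siRNAs are exchanged. If the library names were right, every direction given here would be the opposite. Each title ends in siRNA and a number, without saying whether it marks a replicate or a different siRNA. This number is called the replicate here. The level of GLCC1 itself was not analysed here.

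The pentose phosphate pathway branches off glycolysis at glucose-6-phosphate. Its oxidative branch decarboxylates the sugar and yields NADPH, which cells use for reductive synthesis and against oxidative damage. The non-oxidative branch interconverts sugar phosphates reversibly and returns them to glycolysis or supplies ribose-5-phosphate, which becomes phosphoribosyl pyrophosphate (PRPP), the ribose donor of purines, pyrimidines and NAD. Tumor cells rely on both outputs.

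The control libraries held 15002165 to 19042516 read pairs assigned to genes, and those with GLCC1 siRNA 11948790 to 18390975, replicate 2 being the smallest. Replicate 2 also stood apart from its group: the chi-square per degree of freedom of its counts against the other two was 16.3 and 17.1, against 3.07 between those. Reads on no annotated feature made up 9.82% to 10.1% of the tallies in the controls and 10.96% to 12.7% with GLCC1 siRNA, the most in replicate 2. Of 10 colon epithelial marker genes, 9 had at least 1 CPM (the count scaled by library size and TMM factor) on average in the GLCC1 siRNA libraries and 8 in the controls. Their summed level was 4750 to 5139 CPM in the controls and 2010 to 2328 CPM after GLCC1 siRNA. KRT8, a keratin of simple epithelium, made up most of that sum, with 3584 CPM on average in the controls and 1177 CPM after GLCC1 siRNA. Not all of the list went this way, as CDH17 rose by 0.45 on the log2 scale (adjusted p = 0.0020 from edgeR). Markers of blood, vessel and stromal cells summed to 16.4 to 18.9 CPM in the controls and 10.3 to 14.0 CPM with GLCC1 siRNA, of which COL1A1 held the most, and PTPRC, PECAM1, COL1A2 and DCN had no count in any library. The part of these marker levels in the results was not tested.

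Of the 8 tested pathway genes, RPIA and TALDO1 fell after GLCC1 siRNA and none rose at an adjusted p under 0.05 in edgeR. Among all 23074 genes tested, 31.6% passed in either direction, 14.9% upwards and 16.7% downwards, and among the 10378 genes with at least 10 CPM, as all 8 had, 49.9% passed, 20.1% upwards and 29.8% downwards. With 2 of 8 called, the count lies below both shares and is no result about the pathway. At an unadjusted p under 0.05, PRPS1 was the third gene. The median log2 fold change of the 8 genes was -0.065, against 0.028 for all genes tested and -0.068 for those with at least 10 CPM. None of the 8 both passed and changed at least 2-fold, as 7.78% of all genes tested did.

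**Figure D1:**
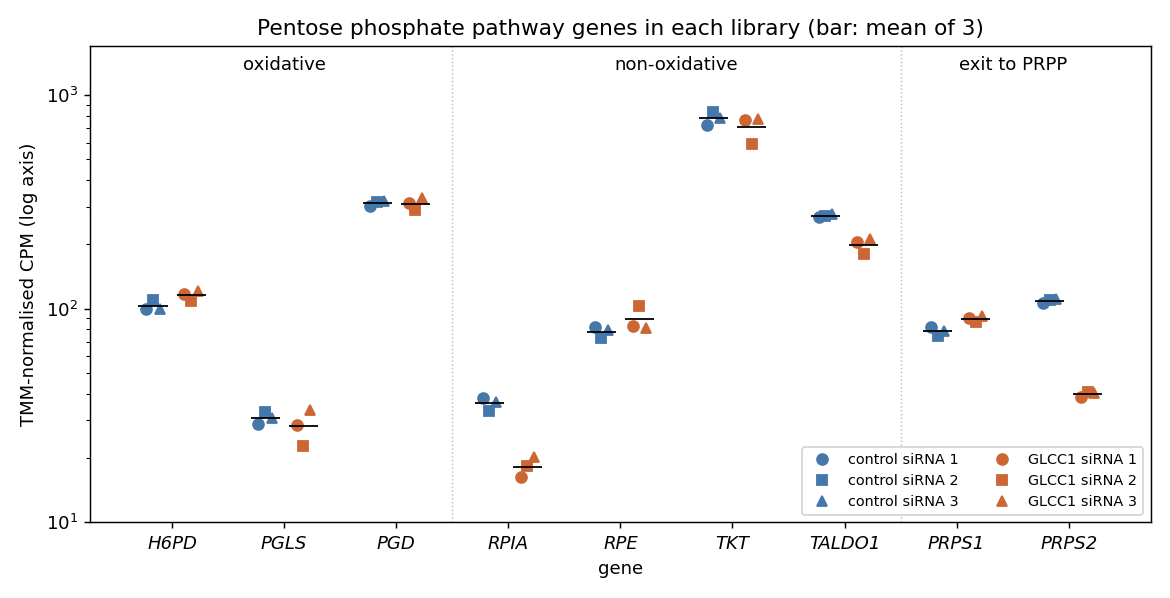
Normalised level of 8 pathway genes and PRPS2 in each of the 6 libraries, in CPM after TMM normalisation on a log axis, with a black bar at the mean of each group of 3. RPIA, TALDO1 and PRPS2 lie lower in all GLCC1 siRNA libraries than in any control library, while TKT and PGD overlap between the groups.

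Levels between genes were compared per kilobase of the canonical transcript. In the control libraries TKT was highest, with 261 ± 18.1 CPM per kilobase (SD, n = 3), followed by TALDO1 with 228 ± 2.82 and PGD with 138 ± 3.79. PRPS1 had 37.8 ± 1.91 CPM per kilobase, PGLS 30.5 ± 1.93, RPE 24.6 ± 1.51, RPIA 19.9 ± 1.36 and H6PD 11.2 ± 0.676. Each gap between neighbours in this order was wider than their SDs. After GLCC1 siRNA, RPIA lay below H6PD, with 10.1 ± 1.10 against 12.6 ± 0.716 CPM per kilobase, and RPE and PGLS did not differ beyond their spread on this scale. The order depends on the length used. With all exons of a gene merged, TALDO1 had 94.0, PGD 93.8 and TKT 82.4 CPM per kilobase in the controls. PGLS then had 10.8, below H6PD with 11.04, and it also stayed below RPE after GLCC1 siRNA, with 9.93 against 25.3 CPM per kilobase. TKT alone held 46.1% of the summed CPM of the 9 genes in the controls and 45.3% after GLCC1 siRNA.

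In the oxidative branch, no gene passed the test. PGD, 6-phosphogluconate dehydrogenase, which makes NADPH and ribulose-5-phosphate, lies on chromosome 1 of hg19 from 10458649 to 10480568. It had 303, 315 and 320 CPM in the control libraries and 311, 291 and 330 CPM in the GLCC1 siRNA libraries. The groups overlapped, and the log2 fold change of -0.0088 did not pass (adjusted p = 0.95 from edgeR, 95% interval -0.18 to 0.16). PGLS, the lactonase upstream of PGD, on chromosome 19 from 17622445 to 17632097, had 28.8, 32.7 and 30.8 CPM in the controls against 28.5, 22.7 and 33.5 CPM. PGLS overlaps an antisense long non-coding transcript over 2236 nt, so its count is uncertain. The lowest of its values was GLCC1 siRNA replicate 2, and the log2 fold change was -0.12 (95% interval -0.40 to 0.16, adjusted p = 0.52).

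H6PD differs from the other enzymes in its place, since it carries out the first oxidative steps inside the endoplasmic reticulum and supplies NADPH there. It lies on chromosome 1 from 9294833 to 9331396. Its levels were 99.3, 110 and 99.3 CPM in the controls and 117, 108 and 121 CPM after GLCC1 siRNA, so that a single GLCC1 siRNA library, replicate 2, overlapped with the controls. The log2 fold change was 0.17 (adjusted p = 0.16, 95% interval -0.017 to 0.35). Without GLCC1 siRNA replicate 2 it was 0.21 and passed (adjusted p = 0.0014 from edgeR), in a fit that called 4844 genes up and 5076 down among 22470. The summed level of the 3 oxidative genes was 446 ± 13.8 CPM in the controls and 455 ± 31.6 CPM after GLCC1 siRNA (SD, n = 3).

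In the non-oxidative branch, RPIA and RPE act on the same substrate, ribulose-5-phosphate, and only RPIA passed the test. RPIA, ribose-5-phosphate isomerase, turns this substrate into ribose-5-phosphate. The gene lies on chromosome 2 from 88991191 to 89050446. RPIA had 37.98, 33.2 and 36.7 CPM in the control libraries and 16.2, 18.3 and 20.2 CPM in the GLCC1 siRNA libraries, without overlap. RPIA was 49.3% lower after GLCC1 siRNA, a log2 fold change of -0.98 ± 0.11 (SE, edgeR adjusted p = 1.9e-05). In these bulk samples, fewer cells with the transcript and less transcript per cell cannot be told apart.

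RPE, ribulose-phosphate 3-epimerase, turns ribulose-5-phosphate into xylulose-5-phosphate. It had 82.1, 72.7 and 79.4 CPM in the controls and 83.4, 103.2 and 80.8 CPM after GLCC1 siRNA, where replicate 2 was the highest and the groups overlapped. The log2 fold change was 0.19 (95% interval -0.036 to 0.41, adjusted p = 0.19), and 0.079 without GLCC1 siRNA replicate 2. RPE, on chromosome 2 from 210867289 to 210886984, overlaps KANSL1L on the other strand over 840 nt, and RPEL1 is a close copy of it without introns, so its count is uncertain, since the sources used here do not say whether counting used strand. RPEL1 itself, which lies within NT5C2, had 9.69 ± 0.319 CPM in the controls and 9.64 ± 0.0945 CPM after GLCC1 siRNA (SD, n = 3).

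TKT and TALDO1 code for transketolase and transaldolase, the enzymes that move carbon units between sugar phosphates. TALDO1, on chromosome 11 from 747415 to 765012, had 270.2, 272 and 277 CPM in the controls against 204, 180.4 and 212 CPM in the GLCC1 siRNA libraries. All 3 GLCC1 siRNA libraries lay below all 3 controls. TALDO1 was 27.2% lower, a log2 fold change of -0.46 ± 0.083 (SE, edgeR adjusted p = 8.1e-04). TKT, on chromosome 3 from 53258728 to 53290068, had 728, 837 and 782 CPM in the controls and 766, 588 and 771 CPM after GLCC1 siRNA. Only replicate 2 of the latter lay below every control, and the log2 fold change was -0.14 (95% interval -0.37 to 0.079, adjusted p = 0.32). Without that library it was -0.022.

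TKTL1, a transketolase-like gene on the X chromosome, was at the limit of detection. It had 2, 2 and 0 read pairs in the control libraries and 1, 0 and 0 in the GLCC1 siRNA libraries, so no fold change is given. TKTL2, its relative, had 1 read pair over the 6 libraries together.

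**Figure D2:**
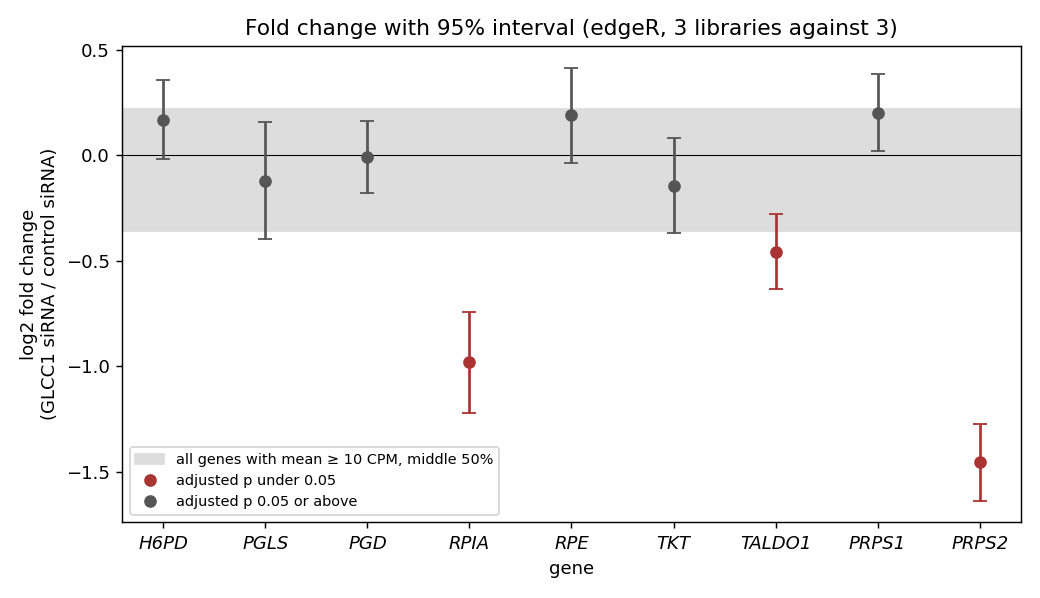
Log2 fold change of GLCC1 siRNA over control siRNA for 8 pathway genes and PRPS2, with 95% intervals from edgeR, and in grey the middle 50% of genes with at least 10 CPM. RPIA (-0.98), TALDO1 (-0.46) and PRPS2 (-1.45) passed the test, and their points lie below the grey band.

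At the exit of the pathway, PRPS1 and PRPS2 code for the phosphoribosyl pyrophosphate synthetases, which turn ribose-5-phosphate into PRPP. PRPS1, on the X chromosome from 106871658 to 106895223, had 82.1, 74.2 and 78.4 CPM in the controls and 90.6, 86.4 and 92.6 CPM after GLCC1 siRNA. The groups did not overlap, nor did they for RPIA and TALDO1, as was so for 46.3% of all genes tested and 63.9% of those with at least 10 CPM. The log2 fold change of PRPS1 was 0.20 ± 0.084 (SE, edgeR adjusted p = 0.088), and without GLCC1 siRNA replicate 2 it was 0.23 (adjusted p = 8.6e-04), in the fit with more calls among all genes given for H6PD. The pseudogene PRPS1P2, which can share its reads, had 2.66 CPM on average in the controls and 3.15 CPM after GLCC1 siRNA.

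PRPS2 is not among the 9 genes but makes the same product. It lies on the X chromosome from 12809474 to 12842341. Its levels were 106, 110 and 111 CPM in the controls and 38.4, 40.6 and 40.3 CPM in the GLCC1 siRNA libraries. PRPS2 was 63.5% lower, a log2 fold change of -1.45 ± 0.085 (SE, edgeR adjusted p = 7.5e-08). The summed level of PRPS1 and PRPS2 was 187 ± 2.36 CPM in the controls and 129.6 ± 3.06 CPM after GLCC1 siRNA (SD, n = 3).

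Ratios of counts within a library do not depend on how the libraries are scaled. In 4 pairs of genes, they were compared with a two-sided exact permutation test, which cannot give a p below 0.1 for 3 libraries against 3. PRPS1 had 0.775, 0.673 and 0.710 read pairs for each read pair of PRPS2 in the control libraries and 2.36, 2.13 and 2.30 in the GLCC1 siRNA libraries. PRPS2 was thus the more abundant in every control library and PRPS1 in every GLCC1 siRNA library. The ratio of RPIA to RPE was 0.463, 0.457 and 0.463 in the controls and 0.194, 0.177 and 0.250 after GLCC1 siRNA. TKT to TALDO1 was 2.70, 3.07 and 2.82 in the controls and 3.75, 3.26 and 3.64 after GLCC1 siRNA. In each of these pairs the groups did not overlap (exact permutation p = 0.1, adjusted p = 0.13 over the 4 pairs). The ratio of PGD to PGLS overlapped, with 10.2 ± 0.465 in the controls and 11.2 ± 1.49 after GLCC1 siRNA (SD, n = 3, exact permutation p = 0.4).

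**Figure D3:**
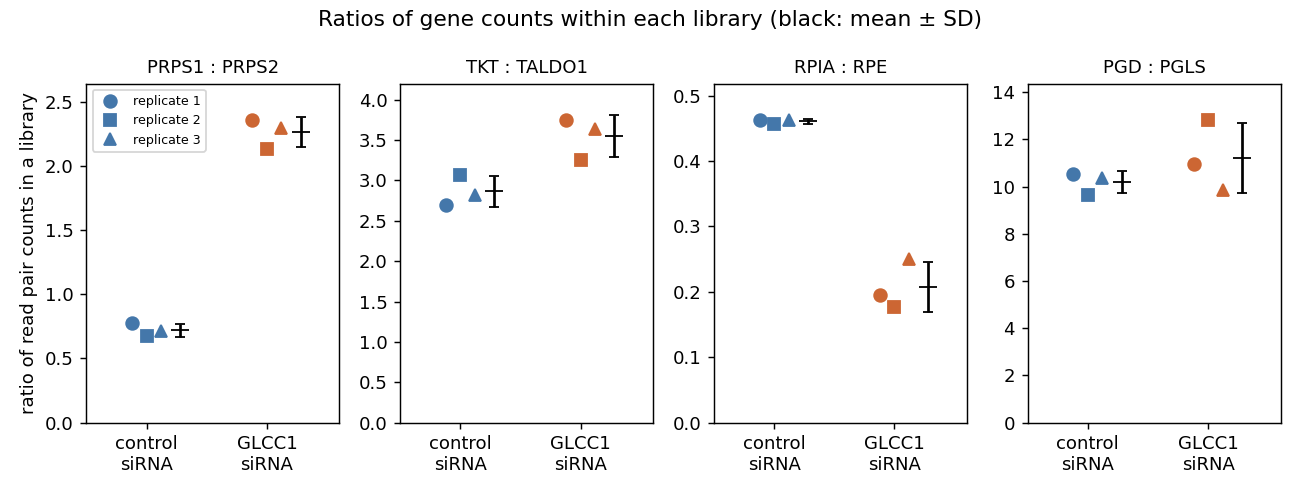
Ratio of read pair counts of 2 genes within each of the 6 libraries, in 4 panels with axes from 0, and in black the mean ± SD of each group of 3. The ratio of PRPS1 to PRPS2 is below 1 in the control libraries and above 2 in the GLCC1 siRNA libraries, whereas that of PGD to PGLS overlaps.

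The 3′ UTRs of the canonical transcripts were searched for ACCTTGA, complementary to the seed (bases 2 to 8) of the guide of siRNA 1 against GLCC1. The sources used here do not state which GLCC1 siRNA was sequenced, and the seed of siRNA 2 was not searched. Single genes were looked up only among the 9 genes, PRPS2 and RPEL1. RPIA was the only one of the 9 genes with the word ACCTTGA, and PRPS2 also had it, while RPEL1 did not. In the following sites, shown because they are the ones found in these genes, the capitals mark the word, and in the siRNA target within GLCC1 they mark the same letters.
siRNA 1 target: ggaagagcaacACCTTGAa
RPIA, chr2:89049610-89049636: gagtgtgttcACCTTGAgtctccagcc
PRPS2, chrX:12841919-12841945: ggaaattcagACCTTGActatttggtg

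Both sites are on the plus strand of hg19. TALDO1, which also fell, has a 3′ UTR of 167 nt without the word. The related word CCTTGAA, which pairs with bases 2 to 7 and ends in A, was present 1 time, in the 3′ UTR of H6PD, which is 6468 nt long. The word ACCTTGA was found in the 3′ UTR of 12.6% of 9113 genes with at least 10 CPM. Of the genes with it, 43.6% fell at an adjusted p under 0.05, against 27.7% of those without. These genes were not matched for the length of the 3′ UTR, and the cause of the difference was not tested. A match describes letters and shows no binding.

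Since the study concerns c-Myc, the promoters of the 9 genes were searched for its binding word, the E-box CACGTG, which reads the same on both strands. None of the 10 windows of RefSeq (GRCh38.p14), from 250 bases before to 50 bases after a start site, held it. It is present in 7.26% of all 35116 such windows.

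Around the pathway, 3 lists of genes were examined. The first holds 19 genes of pentose side reactions and close relatives of the pathway genes, of which 17 were tested. Of these, 5 rose, 3 fell and 9 did not pass, with a median log2 fold change of 0.22. Among all genes tested 14.9% rose and 16.7% fell, and among those with at least 10 CPM 20.1% rose and 29.8% fell. Besides PRPS2, PGM2, which makes ribose-5-phosphate from ribose-1-phosphate, had 82.7 ± 0.770 CPM in the controls and 52.9 ± 1.75 CPM after GLCC1 siRNA (SD, n = 3), with a log2 fold change of -0.65 (adjusted p = 5.4e-05 from edgeR). DCXR, xylulose reductase, fell by 0.48 on the log2 scale. Among the genes that rose, PRPSAP1, which codes for a protein associated with the PRPP synthetases, had a log2 fold change of 0.46 (adjusted p = 0.0013 from edgeR). DERA, which splits deoxyribose phosphate, had one of 0.35. The gluconokinase gene IDNK (0.97) and the aldose reductase gene AKR1B1 (1.57) rose at mean levels below 6 CPM.

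The second list holds 13 genes of other routes to NADPH or of the supply of NADP, and all were tested. Not every one of the 13 codes for an enzyme that itself makes NADPH. Of these, 4 rose, 3 fell and 6 did not pass, with a median log2 fold change of 0.0076. They compare with the same shares of all genes, and of those with at least 10 CPM, as the first list. ME1, cytosolic malic enzyme, had 58.6 ± 2.47 CPM in the controls and 99.98 ± 8.004 CPM after GLCC1 siRNA (SD, n = 3), with a log2 fold change of 0.77 (adjusted p = 2.6e-05 from edgeR). ALDH1L1, a folate dehydrogenase of the cytosol, rose by 1.07 on the log2 scale, whereas its mitochondrial relative ALDH1L2 fell by 1.16 at a level of 2.39 CPM in the controls. IDH1, cytosolic isocitrate dehydrogenase, fell by 0.49 (adjusted p = 3.9e-04 from edgeR), from 245 ± 3.34 to 174 ± 12.6 CPM (SD, n = 3). MTHFD2L rose by 0.53 on the log2 scale, NNT by 0.25, and MTHFD1 fell by 0.25.

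The third list holds 21 genes that use PRPP in the synthesis of nucleotides and NAD or act further along these routes. Of these, 9 fell, 3 rose and 9 did not pass, with a median log2 fold change of -0.17. Those with the smallest adjusted p among the genes that fell all code for enzymes of purine synthesis, as do most genes of the list. They were PFAS, with a log2 fold change of -0.56 (adjusted p = 1.4e-04 from edgeR), ADSL with -0.60, ATIC with -0.50 and PAICS with -0.40. The others that fell were ADSSL1, DHODH, IMPDH2, CAD and APRT. Not all of these kept their calls when 1 library was left out. Between 6 and 11 genes of the list then fell, PFAS, ADSL, ATIC and PAICS each time. PAICS had the highest level of the 4, with 694.7 ± 16.3 CPM in the controls and 526 ± 30.5 CPM after GLCC1 siRNA (SD, n = 3). PPAT, whose enzyme takes up PRPP in the first step of purine synthesis, had a log2 fold change of 0.23 and did not pass (adjusted p = 0.11 from edgeR). GART of the same route had -0.17 and did not pass either (adjusted p = 0.13 from edgeR). ADSS, adenylosuccinate synthase, rose by 0.67 on the log2 scale, CTPS2, a CTP synthase, by 0.95, and GMPS, GMP synthetase, by 0.35. Of these, ADSS and GMPS also act in purine synthesis. Against the 16.7% of all genes that fell, and the 29.8% of those with at least 10 CPM, 9 of 21 is the larger share. The 3 that rose compare with 14.9% and 20.1%. No test of this list as a whole was made.

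**Figure D4:**
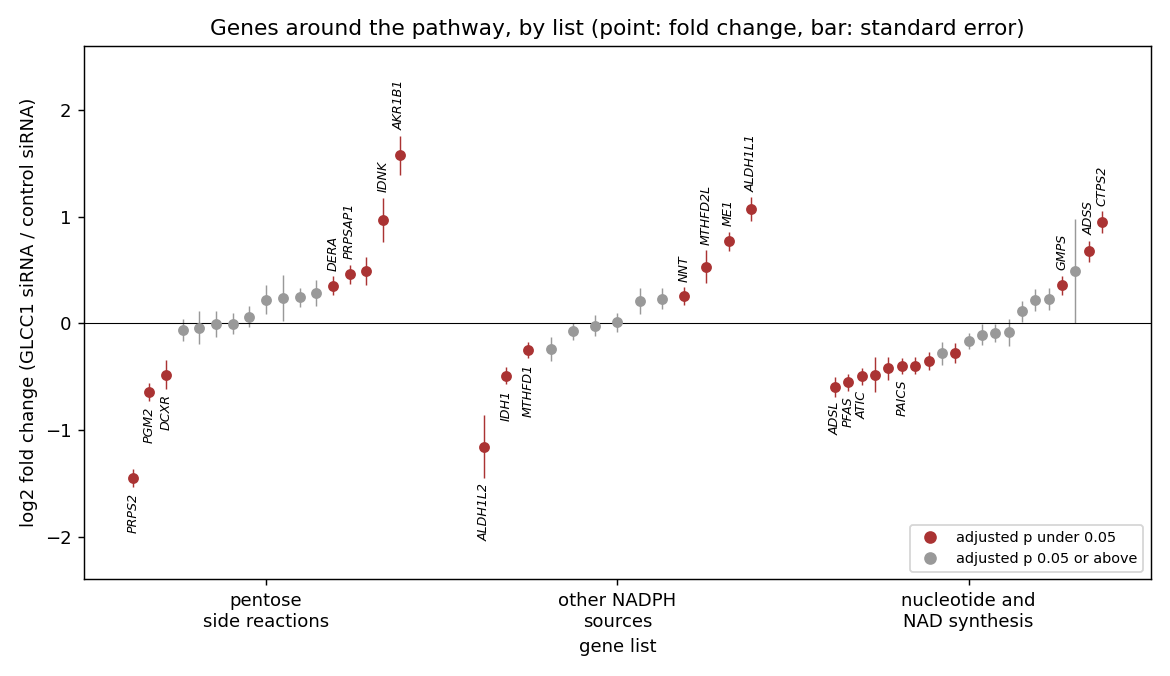
Log2 fold change with standard error of the tested genes of 3 lists around the pathway, ordered by value within each list, with genes at an adjusted p under 0.05 in red. Each list holds genes that rose and genes that fell, from PRPS2 (-1.45) to AKR1B1 (1.57).

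Some of these calls were lost when 1 of the 6 libraries was left out, with log2 fold changes between 0.23 and 0.28 for NNT and between -0.26 and -0.23 for MTHFD1 in those fits. NNT and MTHFD1 did not pass without control replicate 1 (adjusted p = 0.12 and 0.12 from edgeR) or control replicate 3 (0.096 and 0.11). NNT also did not pass without control replicate 2 (0.15) or GLCC1 siRNA replicate 3 (0.052), and MTHFD1 without GLCC1 siRNA replicate 1 (0.0503) or replicate 3 (0.055). DCXR and MTHFD2L did not pass without control replicate 2 (0.057 and 0.092) or control replicate 3 (0.069 and 0.051), ALDH1L2 without control replicate 1 (0.052), and GMPS without control replicate 2 (0.052).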

How the data were processed

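Total RNA was sequenced from 6 libraries, 3 of each group. Paired reads were aligned to hg19 by the authors, with TopHat2 2.0.11 and an Ensembl GRCh37 transcript index, and counted with HTSeq in union mode, and the authors deposited raw counts per gene symbol, without normalization. The tallies of reads given to no gene, 30.0% to 30.1% of each control library and 30.8% to 30.9% of each GLCC1 siRNA library, were removed. A gene was kept when its counts summed to at least 5 in either group, as in the methods of the study. Counts were compared in edgeR 4.0.16 (R 4.3.3) with TMM factors and the robust quasi-likelihood test, Benjamini-Hochberg adjustment over 23074 genes and a threshold of 0.05. A positive log2 fold change means a higher level with GLCC1 siRNA.

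The 9 genes and the lists around them were chosen with earlier results of these data known. Named genes are the 9 members, their paralogs with counts and the pseudogene PRPS1P2. Of each list, up to 4 genes for each direction were named, with the smallest adjusted p and at least 1 CPM. Other pseudogenes with counts were lower. PGDP1 had 0.37 CPM on average in each group, and RPEP3 0.063 CPM in the controls and 0.0986 CPM after GLCC1 siRNA. Where PPAT and GART were named, they were chosen after their values were seen. Lengths, positions and 3′ UTRs are from GENCODE 44 mapped to hg19, and promoters from RefSeq. The siRNA target was read from the GLCC1 plasmid sequence of the study. In simulated counts with 200 changed genes among 22215, edgeR recovered 187 and called 205, of which 8.78% were unchanged. Far fewer genes were changed there than were called in the data, 31.6% of those tested. The simulated figures therefore do not carry over to the calls made here. Levels over merged exons were added after seeing the data. Alternatives were DESeq2 1.42.0, its size factors, library totals alone, other filters, a replicate block, a threshold of 0.001 and each library left out.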

Additional observations from a re-analysis of the deposited data

How the results depend on the processing

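RPIA and TALDO1 fell and passed under each alternative run, whereas the calls of members upwards depended on the scaling and on 1 library. With library totals alone, which moved the median of all genes from 0.028 to 0.15 and the genes called up among 23074 from 3429 to 4735, 3 members rose, namely H6PD (0.29), RPE (0.31) and PRPS1 (0.32), PGLS turned to 0.0010 and PGD to 0.11, 5 nucleotide genes rose, and MTHFD1 was -0.13 and did not pass (adjusted p = 0.23 from edgeR). With at least 10 counts in every library 1 member rose, PRPS1 (0.24), and PGD was 0.030. PGD was 0.0031 with DESeq2 and 0.0030 with its size factors. At an adjusted p under 0.001, the lists held 1 risen gene of side reactions, 2 risen and 1 fallen NADPH gene and 3 fallen nucleotide genes, with 1130 risen and 1530 fallen among all genes.

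With each library left out in turn, between 0 and 2 members rose, between 2 and 6 NADPH genes rose and between 1 and 4 fell. Of the nucleotide genes, between 2 and 4 rose and between 6 and 11 fell. The log2 fold change ranged from 0.13 to 0.22 for H6PD, from -0.26 to 0.0083 for PGLS, from -0.052 to 0.041 for PGD, from 0.16 to 0.24 for PRPS1, and from 0.079 to 0.26 for RPE. The 2 risen members were H6PD and PRPS1, without GLCC1 siRNA replicate 2, where 4844 of 22470 genes rose. Deviations of the log2 levels from the group mean, not the levels themselves, were correlated between libraries over 14875 genes. The correlations were -0.18, -0.32 and -0.013 for the same replicate number, and -0.27 to 0.29 for different numbers. Libraries with the same number were thus no more alike than others. With the replicate block, 0 members rose and 2 fell, while edgeR gave NNT and MTHFD1 adjusted p of 0.10 and 0.077. The cause of these changes was not tested. TKTL1 was removed by the count filter, with 5 read pairs in all 6 libraries together.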
